A study of Mus musculus with 12 samples.

Results

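Core antiviral interferon-stimulated genes are 10 genes taken by symbol from the deposited count table: Ifit1, Ifit2, Ifit3, Rsad2, Mx1, Mx2, Isg15, Usp18, Ifi44 and Cmpk2. All 10 were present among 24328 gene symbols, and all 10 passed the filter on low counts that left 12695 tested genes. The RNA came from microglia (brain-resident macrophages) that had been FACS-sorted from WT Balb/c mice in 3 groups of 4. Allogeneic and syngeneic recipients had been lethally irradiated, given 5000000 bone marrow cells with 300000 T cells, and perfused on day 14, the height of graft-versus-host disease (GvHD) per the labels. The control mice were untransplanted, and the series calls them untreated, so comparisons with control combine irradiation and transplantation. The sources used here give neither the donor strain nor the ages. Nothing in a library separates RNA of resident microglia from RNA of donor-derived cells that passed the same gate.

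Type I interferons bind a receptor made of IFNAR1 and IFNAR2, whose kinases TYK2 and JAK1 activate the transcription factor complex ISGF3. ISGF3, which contains STAT2 and IRF9, binds interferon-stimulated response elements (ISREs) in promoters of antiviral genes. Interferon-gamma uses another receptor and acts mainly through a different promoter element, although many antiviral genes respond to both. Microglia carry the receptors for both kinds of interferon.

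The promoter sequences below show the core of the ISRE where it was found, in 4 of the 10 genes and in Ifit3b. RefSeq promoter windows (build GRCm38.p6, 250 bases before to 50 after each start) were matched by symbol for 7 of the 10 genes; Mx1, Mx2 and Usp18 had none in the table. They were searched on both strands for GAAA and GAAA separated by any 2 bases, the core of the ISRE, with overlapping matches counted separately. It occurred in 4 of the 7, namely Isg15 (3 overlapping matches), Ifit1 (2), Ifit3 (2) and Rsad2 (1), against 3.99% of 27025 genes with a window (3.44% of all 32851 windows). A shorter form with GAA as its second part, which every full match also holds, added Ifi44 and was held by 9.76% of genes (8.56% of windows); neither form was found in the windows of Ifit2 and Cmpk2. The 170 bases before the start are printed 5′ to 3′ on the strand of each gene, with capitals marking the full matches, which read as TTTC and TTTC where the match lies on the other strand. Ifit3b, a near copy of Ifit3, is included because its reads may be shared with Ifit3.
Isg15, chr4:156200819-156200988 (-): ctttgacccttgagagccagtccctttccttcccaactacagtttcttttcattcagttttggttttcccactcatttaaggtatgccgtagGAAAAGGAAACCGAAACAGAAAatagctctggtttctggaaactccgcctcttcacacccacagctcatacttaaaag
Ifit1, chr19:34640719-34640888 (+): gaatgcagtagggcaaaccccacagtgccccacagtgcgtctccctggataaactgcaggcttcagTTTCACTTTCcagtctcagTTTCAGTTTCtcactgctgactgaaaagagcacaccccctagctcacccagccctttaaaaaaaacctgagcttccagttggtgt
Ifit3, chr19:34583359-34583528 (+): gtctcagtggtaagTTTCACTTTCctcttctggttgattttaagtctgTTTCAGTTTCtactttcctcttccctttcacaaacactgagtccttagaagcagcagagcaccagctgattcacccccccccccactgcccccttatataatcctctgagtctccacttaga
Ifit3b, chr19:34607787-34607956 (+): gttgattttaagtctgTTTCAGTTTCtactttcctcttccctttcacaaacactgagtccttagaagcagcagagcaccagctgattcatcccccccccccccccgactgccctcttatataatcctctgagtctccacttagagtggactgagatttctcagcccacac
Rsad2, chr12:26456453-26456622 (-): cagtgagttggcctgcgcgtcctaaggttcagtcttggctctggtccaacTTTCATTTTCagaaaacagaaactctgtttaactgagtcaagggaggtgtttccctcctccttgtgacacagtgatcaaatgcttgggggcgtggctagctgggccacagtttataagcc
Isg15 carries its matches between -78 and -57 from the start, as 1 run on the gene's own strand. In Ifit1 they begin at -104 and -85, in Ifit3 at -156 and -122, and in Rsad2 at -120, all on the opposite strand. The same pair in Ifit3b begins at -188 and -154, so the first of them lies before the printed stretch. Moved by 32 bases without gaps, the windows of Ifit3 and Ifit3b shared 75.0% of 268 bases. This share understates their likeness. A run of c near the start differs in length between them, so the bases after it were compared out of register. A match describes letters in the reference and is no evidence of binding.

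**Figure D1:**
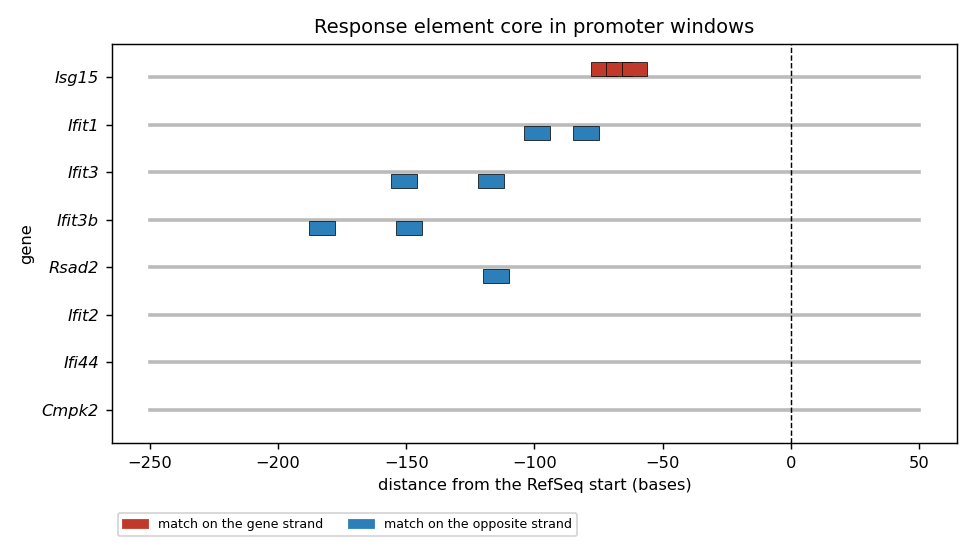
Map of full ISRE core matches in RefSeq promoter windows; the x axis is the distance from the annotated start in bases, each grey line is 1 gene's window, red boxes lie on the gene strand and blue boxes on the opposite strand. Isg15 has 3 overlapping matches, Ifit1, Ifit3 and Ifit3b have 2 each, Rsad2 has 1, and Ifit2 (the first of its windows is drawn), Ifi44 and Cmpk2 have none.

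Library totals were 35559202 to 42641198 counts in allogeneic, 36422729 to 46126118 in syngeneic and 32652208 to 45439607 in control mice. Values below are CPM, counts per 1000000 of the TMM-scaled library size. A gene is said to rise or fall where edgeR's quasi-likelihood test gave a Benjamini-Hochberg adjusted p under 0.05 over all tested genes. Microglia markers were high in every library, with a summed level over 10 genes of 33180 to 34620 CPM in allogeneic, 45680 to 48560 in syngeneic and 47530 to 54260 in control libraries. All 10 monocyte markers had counts, and their sum was 292 to 464 CPM in allogeneic, 40.8 to 75.6 in syngeneic and 19.95 to 23.4 in control libraries, with Chil3 and Vcan at 0 in syngeneic libraries. Border-associated macrophage markers (8 of 8 with counts) summed to 42.0 to 59.7, 26.7 to 39.1 and 1.82 to 7.71 CPM in allogeneic, syngeneic and control libraries, with Lyve1 at 0 in allogeneic and control libraries. Choroid plexus markers (6 of 6) summed to 339 to 605, 1092 to 1929 and 12.9 to 96.7 CPM in the same order, with Aqp1 at 0 in control. T cell markers (8 of 10 in the table, all with counts) summed to 1.42 to 4.41, 0.78 to 5.81 and 1.70 to 3.98 CPM. Cd3e, Cd3g, Cd8a and Cd4 were at 0 in syngeneic libraries, and Cd3e, Cd3d, Cd3g and Cd2 in control libraries. In the allogeneic group each of the 8 had counts. Plasmacytoid dendritic cells are a strong source of interferon; 7 of their 9 markers had counts, and the sum was 2948 to 3212 CPM in allogeneic, 2540 to 2773 in syngeneic and 2009 to 2178 in control libraries. Klk1 and Ly6d were at 0 in every group, Ccr9 in allogeneic and Spib in syngeneic and control libraries, and the list also holds Siglech, a microglia gene, and Bst2, an interferon-stimulated gene. The part of these cells in the results was not tested, and in bulk samples fewer cells of a type and less RNA per cell cannot be told apart.

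The 10 genes together made up a larger part of the RNA in each transplanted group. Their summed level was 2433, 2458, 3253 and 1973 CPM in allogeneic libraries 1 to 4, 479 to 948 CPM in syngeneic libraries and 61.0 to 103.9 CPM in control libraries. The groups did not overlap, and the means were 2529 ± 531 CPM in allogeneic, 665 ± 199.5 CPM in syngeneic and 84.7 ± 19.2 CPM in control libraries (SD, n = 4 each). In allogeneic against syngeneic microglia, 8 of the 10 rose and 0 fell, with a median log2 fold change of 1.87; of all tested genes 10.1% rose and 6.38% fell, with a median of -0.01. In syngeneic against control, 8 rose and 0 fell with a median of 2.98, against 26.4% called higher, 25.6% called lower (52.1% in either direction) and a median of -0.03 over all genes. In allogeneic against control microglia all 10 rose, with a median of 5.09, and for each of them the 4 allogeneic libraries lay above the 4 control ones; of all tested genes 28.2% were called higher (57.3% in either direction), 26.2% had such libraries, and the median was -0.07. Higher calls made up 61.4%, 50.8% and 49.2% of all calls in these comparisons, and 28.6%, 40.7% and 31.8% with library totals only, a scaling under which all calls of the 10 kept their direction. The exceptions differed between comparisons: Rsad2 and Cmpk2 missed the threshold in allogeneic against syngeneic, and Mx1 and Mx2 in syngeneic against control. Allogeneic libraries stood entirely above syngeneic ones for 9 of the 10, as did 12.6% of all tested genes.

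**Figure D2:**
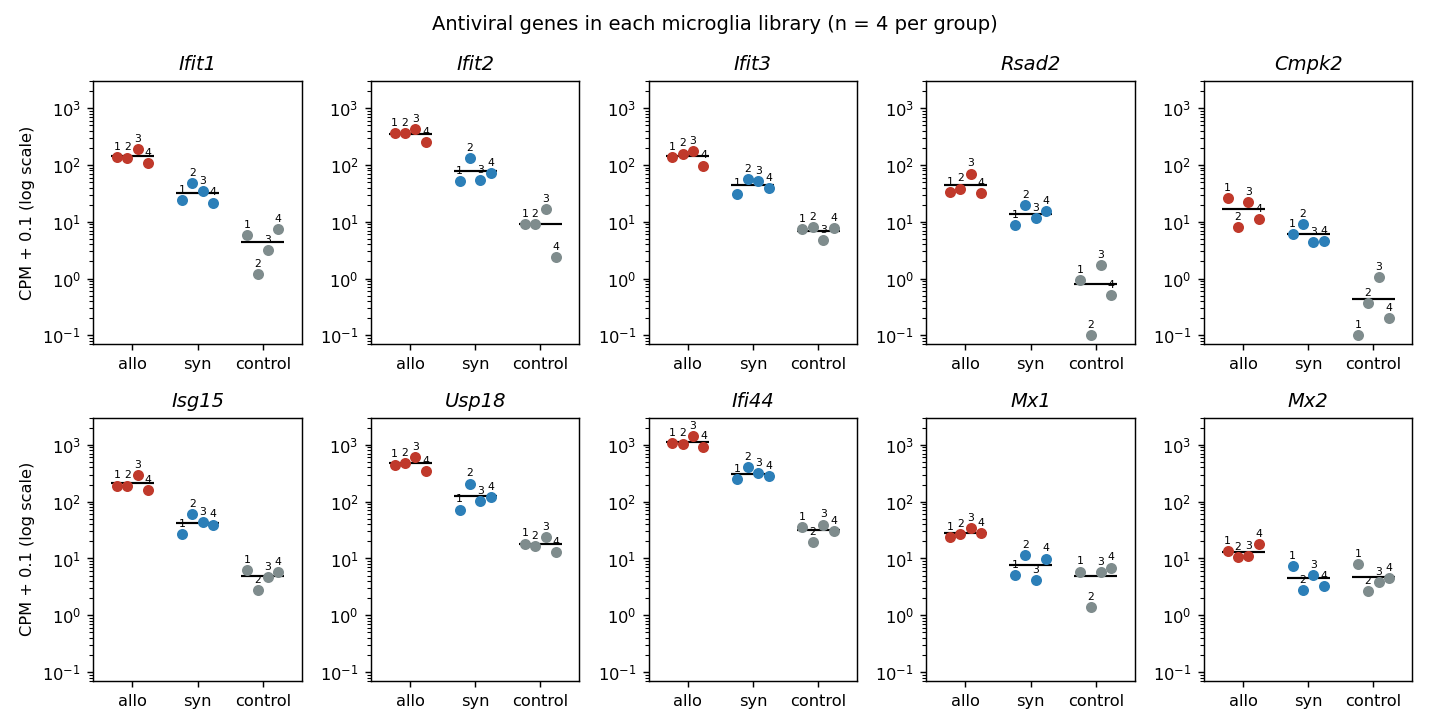
CPM plus 0.1 on a log scale (y axis) for each of the 10 genes in every library; points are libraries labelled by replicate number, grouped as allogeneic (allo), syngeneic (syn) and control, and black lines are group means (n = 4). Allogeneic points lie above the others throughout apart from Cmpk2, where allogeneic 2 (7.93 CPM) lies below syngeneic 2 (9.01 CPM), and the syngeneic and control points of Mx1 and Mx2 overlap.

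Isg15 encodes a small ubiquitin-like protein that is attached to other proteins or secreted. It measured 192, 192, 297 and 159.7 CPM in allogeneic libraries, 26.7, 60.2, 43.7 and 39.3 CPM in syngeneic libraries, and 6.20, 2.66, 4.53 and 5.59 CPM in control libraries. No library of one group reached those of another. It rose 4.95-fold in allogeneic against syngeneic (2.31 on the log2 scale, SE 0.28, edgeR adjusted p = 3.46e-05), the largest fold of the 10 in this comparison with all libraries; without syngeneic 2 the log2 fold change was 2.525 for Isg15 and 2.57 for Ifit2. Against control it was higher by 8.95-fold in syngeneic (edgeR adjusted p = 7.71e-07) and by 44.3-fold in allogeneic microglia (edgeR adjusted p = 3.82e-09). Per kilobase of its longest GENCODE transcript, 756 bases, Isg15 reached 278 ± 79.4 CPM in allogeneic libraries, close to Ifi44 at 274 ± 51.9 and Usp18 at 266 ± 62.5 (SD, n = 4). Differences between these genes, which were measured in the same libraries, were not tested.

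Usp18 encodes the protease that removes ISG15 from its targets, and it also restrains type I interferon signalling at IFNAR2. Its level was 449, 478, 611 and 342 CPM in allogeneic, 72.6, 207, 100.8 and 121 CPM in syngeneic and 18.1, 16.4, 23.8 and 12.8 CPM in control libraries. It thus rose alongside Isg15, by 3.75-fold in allogeneic against syngeneic (log2 1.91, SE 0.31, edgeR adjusted p = 0.00131) and 7.04-fold in syngeneic against control (log2 2.82, SE 0.33, edgeR adjusted p = 2.4e-05). GENCODE places 1 other gene, Gm44148, on the opposite strand of Usp18; it is not a symbol of the count table, and no source used here states how strand was handled.

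The enzymes that attach ISG15 did not all follow it. Of 5 listed, all tested, 4 rose and 0 fell in allogeneic against syngeneic, but 3 rose and 1 fell in syngeneic against control; over all genes 10.1% rose and 6.38% fell, and 26.4% rose and 25.6% fell. Ube2l6, the conjugating enzyme (E2), stood at 352 ± 59.4 CPM in allogeneic, 125 ± 15.3 in syngeneic and 40.5 ± 3.52 in control libraries (SD, n = 4). It rose in both steps, with log2 fold changes of 1.49 ± 0.12 and 1.63 ± 0.12 (SE; edgeR adjusted p = 2.04e-08 and 2.06e-09). Herc6, the main ISG15 ligase of the mouse, was at 224 ± 58.7, 75.4 ± 25.5 and 26.7 ± 5.17 CPM and also rose in both (log2 1.57 ± 0.22 and 1.498 ± 0.22). Uba7, the activating enzyme (E1) that starts the cascade, went the other way against control: its level was 46.01 ± 6.67 CPM in allogeneic, 24.2 ± 5.44 in syngeneic and 192 ± 23.3 in control libraries. The control libraries ranged from 168 to 224 CPM, far above the 16.1 to 27.3 CPM of syngeneic and the 37.3 to 52.7 CPM of allogeneic libraries. Uba7 fell by 2.99 on the log2 scale in syngeneic against control (SE 0.16, edgeR adjusted p = 6.61e-11) and fell by 2.06 in allogeneic against control (SE 0.16, edgeR adjusted p = 2.16e-09), while it rose by 0.93 in allogeneic against syngeneic (SE 0.15, edgeR adjusted p = 2.24e-04). These Uba7 calls held with every library left out in turn and under every other alternative run. GENCODE lists Gm20661 on the same strand over Uba7, a symbol that the count table does not hold. Trim25, a ligase also described for ISG15, rose in allogeneic against syngeneic (log2 0.92 ± 0.16); its call in syngeneic against control (log2 0.41 ± 0.16, edgeR adjusted p = 0.043) was lost, at edgeR adjusted p = 0.0516 to 0.181, without control 1, 2 or 4, syngeneic 2, 3 or 4, or allogeneic 2 or 4, and with library totals only, no filter, only the compared groups or limma-voom (adjusted p = 0.0572 to 0.223). Ube2e2, another conjugating enzyme, was barely detected (0.62, 1.11 and 0.40 CPM on average in allogeneic, syngeneic and control) and was called in neither step.

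The IFIT proteins bind foreign RNA and each other; IFIT1 recognises RNA whose cap lacks the methyl groups of host messages. Ifit3 measured 138, 158, 175 and 97.4 CPM in allogeneic, 31.2, 56.6, 52.0 and 39.3 CPM in syngeneic and 7.24, 8.07, 4.64 and 7.58 CPM in control libraries. The groups were clear of each other, and this was the least variable of the 3 Ifit genes in control libraries. Ifit3 rose 3.17-fold in allogeneic against syngeneic (log2 1.67, SE 0.20, edgeR adjusted p = 7.74e-06) and 6.53-fold in syngeneic against control (log2 2.71, SE 0.22, edgeR adjusted p = 8.35e-09). Ifit1 ranged from 106.0 to 188 CPM in allogeneic, from 21.6 to 48.2 in syngeneic and from 1.12 to 7.22 in control libraries, and Ifit2 from 251 to 426, from 51.8 to 129.9 and from 2.30 to 16.4 CPM. Both rose in each step, Ifit1 with log2 fold changes of 2.14 ± 0.43 and 2.90 ± 0.47 and Ifit2 with 2.19 ± 0.48 and 3.05 ± 0.51 (SE; edgeR adjusted p = 0.00504 and 2.58e-04, and 0.0102 and 5.11e-04). Relative to their length, Ifit2 averaged 91.5 ± 19.1 CPM per kilobase in allogeneic libraries, Ifit3 81.4 ± 19.1 and Ifit1 53.1 ± 12.8 (SD). The genes were measured in the same libraries, so these SDs do not measure the differences between them, which were not tested.

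The neighbouring family genes were read beside them. Ifit3b stood at 57.6 ± 8.15 CPM in allogeneic, 15.7 ± 8.17 in syngeneic and 1.84 ± 1.13 in control libraries and rose in both steps (log2 1.87 ± 0.34 and 3.07 ± 0.37). No source used here states how reads shared between Ifit3 and Ifit3b were assigned, so the split between them is uncertain. Ifit1bl1 and Ifit1bl2, further Ifit1-like genes, were low, at 1.999 and 5.32 CPM on average in allogeneic libraries, and were not called in allogeneic against syngeneic; Ifit1bl2 was called higher there with only the compared groups (edgeR adjusted p = 0.0213) or with limma-voom (adjusted p = 0.014). Against control Ifit1bl1 rose by 3.66 ± 1.32 in syngeneic on the log2 scale, or by 8.57 without control 1, which alone carried its control counts. That call was lost without control 2, 3 or 4 or syngeneic 2 or 3 (edgeR adjusted p = 0.0575 to 0.0615), and the one of Ifit1bl2 (2.06 ± 0.73, or 3.01 without control 3) without control 1 or syngeneic 3 (0.0615 and 0.0599) or with only the compared groups (0.0841).

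Ifi44, an interferon-induced cytoplasmic protein, was the most abundant of the 10 in plain CPM. It ranged from 928 to 1417 CPM in allogeneic, from 246.5 to 403 CPM in syngeneic and from 19.6 to 39.4 CPM in control libraries. The 3 groups did not overlap, and the coefficient of variation was 18.9% in allogeneic and 21.6% in syngeneic libraries. It rose 3.58-fold in allogeneic against syngeneic (log2 1.84, SE 0.21, edgeR adjusted p = 4.84e-05) and 9.97-fold in syngeneic against control (log2 3.32, SE 0.23, edgeR adjusted p = 9.31e-08). Its relative Ifi44l rose in the same comparisons, by 2.45 ± 0.27 and 2.91 ± 0.28 on the log2 scale.

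Rsad2 encodes viperin, which converts CTP into a nucleotide that ends viral RNA chains, and Cmpk2, its neighbour on chromosome 12, encodes a nucleotide kinase that supplies CTP. Both were almost silent in control microglia. Rsad2 measured 33.5, 38.2, 70.6 and 31.9 CPM in allogeneic, 8.69, 19.4, 11.5 and 15.2 CPM in syngeneic and 0.84, 0, 1.61 and 0.41 CPM in control libraries. The 0 of control 2 allows up to 0.0796 CPM (3 counts in that library, for counting error only). Rsad2 rose 18.4-fold in syngeneic against control (log2 4.20, SE 0.64, edgeR adjusted p = 1.11e-04) and 58.3-fold in allogeneic against control (log2 5.87, SE 0.68, edgeR adjusted p = 7.03e-06), the largest folds of the 10 in both comparisons with all libraries. Its log2 fold change in allogeneic against syngeneic was 1.67 (SE 0.55, edgeR adjusted p = 0.0553), which missed the threshold although all 4 allogeneic libraries lay above all 4 syngeneic ones. With only these groups in the fit Rsad2 was called higher (log2 1.65, edgeR adjusted p = 3.87e-04), as it was with limma-voom (adjusted p = 6.01e-04) and without control 2 (edgeR adjusted p = 0.00157) or control 3 (0.0217).

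Cmpk2 measured 25.8, 7.93, 22.1 and 11.2 CPM in allogeneic, 6.04, 9.01, 4.24 and 4.50 CPM in syngeneic and 0, 0.27, 0.96 and 0.10 CPM in control libraries, where the 0 of control 1 allows up to 0.0744 CPM. Allogeneic 2 fell within the syngeneic range. It rose 17.0-fold in syngeneic against control (log2 4.09, SE 0.73, edgeR adjusted p = 1.8e-04), and its fold change in allogeneic against syngeneic was 1.49 on the log2 scale (SE 0.62, edgeR adjusted p = 0.124). With only these groups in the fit this became a call (log2 1.47, edgeR adjusted p = 0.00922), as with limma-voom (adjusted p = 0.0278) and without control 1 (edgeR adjusted p = 0.0401) or control 3 (0.035). Control 3 held most of the control signal of both genes. Without it the log2 fold changes against control were 5.00 for Rsad2 and 5.58 for Cmpk2 in syngeneic, and 6.66 and 7.07 in allogeneic microglia.

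The Mx genes encode dynamin-like GTPases that trap viral ribonucleoproteins. RefSeq annotates both Mx1 and Mx2 as transcribed pseudogenes in the C57BL/6J reference, and Balb/c is among the laboratory strains known to carry a defective Mx1, so the transcript levels given here are not levels of a working protein. GENCODE differs from RefSeq, with Mx1 as protein coding and Mx2 as a polymorphic pseudogene. Mx1 measured 23.7, 26.9, 34.2 and 28.3 CPM in allogeneic, 5.06, 11.3, 4.11 and 9.86 CPM in syngeneic and 5.75, 1.30, 5.62 and 6.83 CPM in control libraries. Mx2 measured 13.4, 10.6, 10.8 and 17.6 CPM in allogeneic, 7.13, 2.67, 4.96 and 3.18 CPM in syngeneic and 7.83, 2.55, 3.74 and 4.42 CPM in control libraries. For both genes the allogeneic libraries were all above the rest, and the syngeneic and control libraries overlapped. Mx1 rose 3.72-fold in allogeneic against syngeneic (log2 1.90, SE 0.39, edgeR adjusted p = 0.00194) and Mx2 2.92-fold (log2 1.54, SE 0.38, edgeR adjusted p = 0.00691). In syngeneic against control the log2 fold change was 0.64 for Mx1 (SE 0.39, edgeR adjusted p = 0.184) and -0.05 for Mx2 (SE 0.37, edgeR adjusted p = 0.928); neither was called with any library left out or under any other alternative run. Mx2 was also the gene whose libraries ranked differently: it was highest in syngeneic 1 and allogeneic 4, where most of the others were lowest.

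Both steps of each gene were set side by side and their difference was tested, as the log2 fold change of allogeneic over syngeneic minus that of syngeneic over control. Both steps use the same syngeneic libraries, so a high or low syngeneic library moves them in opposite directions. For 8 of the 10 genes the step of syngeneic over control was the larger in value, holding 57.6% (Ifit1) to 73.3% (Cmpk2) of the whole log2 rise. That step held 25.2% for Mx1 and -3.16% for Mx2. The share of all tested genes with the larger value in that step was not counted. Calls in either direction took in 52.1% of all tested genes in syngeneic against control and 16.5% in allogeneic against syngeneic. The difference of steps was called lower for Ifi44 (-1.48, SE 0.35, edgeR adjusted p = 0.00725) and Ifit3 (-1.04, SE 0.34, edgeR adjusted p = 0.0285), 2 of the 10, where 15.5% of all tested genes were called lower and 14.4% higher (29.9% in either direction). The Ifit3 call was lost without syngeneic 2 (edgeR adjusted p = 0.142) or syngeneic 3 (0.105), and without syngeneic 2 the difference was -0.11 for Ifit2 and -0.20 for Usp18, against -0.87 and -0.91 with all libraries. Rsad2 (-2.53, edgeR adjusted p = 0.0598) and Cmpk2 (-2.60, 0.0788) were not called, but were without control 3 (-3.34, edgeR adjusted p = 0.0102, and -4.10, 0.00241), and Rsad2 also without control 2 (0.0106) or allogeneic 3 (0.0369) or with library totals only (-2.59, 0.0425). Mx2 (1.59, edgeR adjusted p = 0.0792) and Mx1 (1.26, 0.183) pointed the other way without a call; Mx2 was called higher without control 2 (0.0451) or syngeneic 1 (2.23, edgeR adjusted p = 0.0303), and Mx1 without control 2 (0.03).

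**Figure D3:**
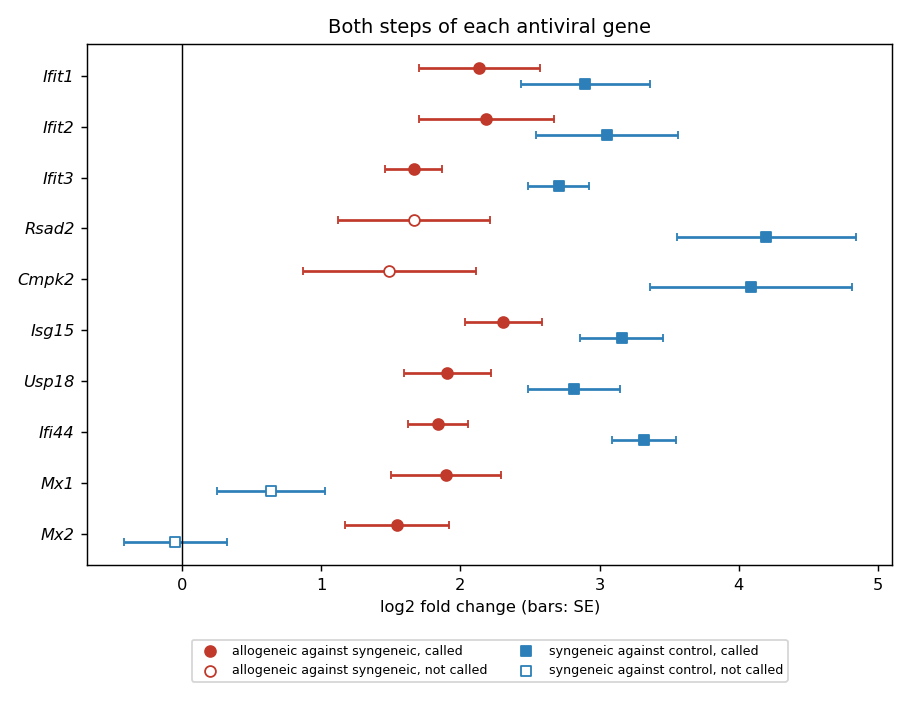
Log2 fold change (x axis) of each gene in allogeneic against syngeneic (red circles) and in syngeneic against control (blue squares); bars are standard errors of the edgeR fit and open symbols were not called. The blue value exceeds the red one in 8 genes, while Mx1 (1.90 against 0.64) and Mx2 (1.54 against -0.05) have the larger value in allogeneic against syngeneic.

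Within a group the genes tended to be high or low in the same libraries. Syngeneic 2 held the highest level of 9 of the 10 genes and the lowest of Mx2, and syngeneic 1 the lowest of 6. Allogeneic 3 held the highest level of 8 genes and allogeneic 4 the lowest of 7. In log2 CPM, the genes averaged 0.378 above their group mean in allogeneic 3 and 0.499 above it in syngeneic 2, and stood at -0.747 from it in control 2. Allogeneic 3 and syngeneic 2 had the highest monocyte marker sums of their groups, 464 and 75.6 CPM. In control 3 the genes averaged 0.565 above their group mean, and its monocyte sum was the lowest of the control libraries (19.95 CPM, highest 23.4). The monocyte list also holds Ms4a4c, which itself had a profile similar to the 10 genes (log2 fold changes 2.92 in allogeneic against syngeneic and 1.98 in syngeneic against control). The part of monocytes in the spread was not tested. Without syngeneic 2, the counts of called genes stayed at 8, 8 and 10 of 10 in the 3 comparisons.

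**Figure D4:**
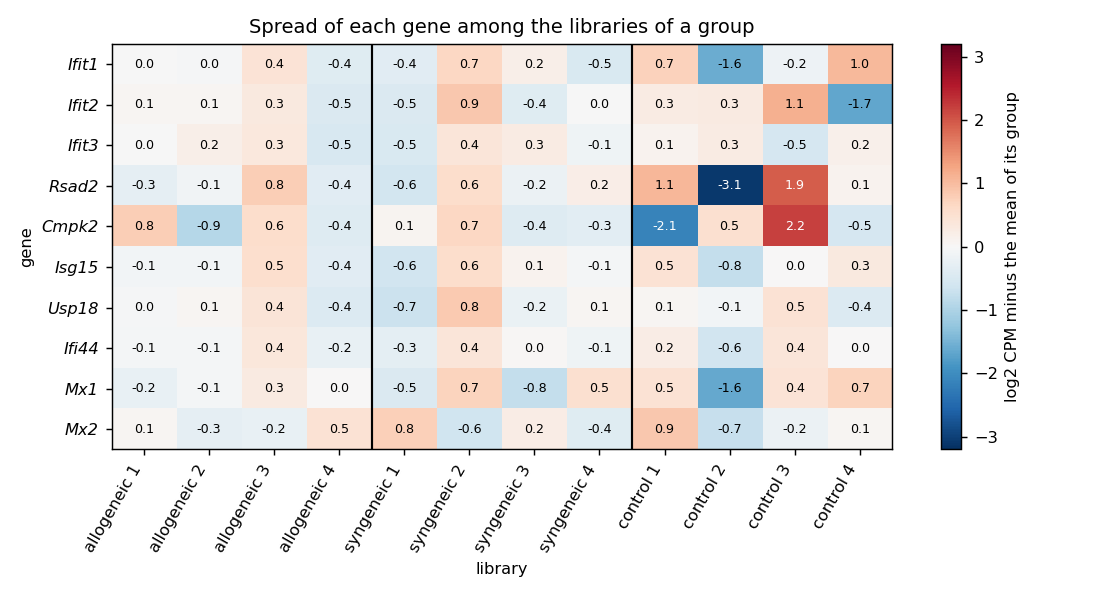
Log2 CPM of each gene (rows) in each library (columns) minus the mean of that library's group, with values printed in the cells and red above, blue below the mean. Syngeneic 2 and allogeneic 3 are above their group means for 9 of 10 genes each, and the widest deviations are those of Rsad2 in control 2 (-3.09) and Cmpk2 in control 1 (-2.14), the libraries with 0 counts, and of both in control 3.

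The ligands themselves were sparse. Of 17 type I interferon genes, all in the table, 9 had any count and only Ifnb1, encoding interferon-beta, had enough to test. It had 60, 87, 72 and 86 counts in allogeneic libraries, 46, 25, 1 and 31 in syngeneic libraries and 0, 0, 0 and 1 in control libraries. Summed over a group this is 305, 103 and 1 counts, a ratio of 370 between allogeneic and control (95% exact binomial interval 66.0 to 14700) and 103 between syngeneic and control (18.1 to 4120), for counting error only. Against control, Ifnb1 was called higher in allogeneic (edgeR adjusted p = 1.26e-04) and in syngeneic microglia (edgeR adjusted p = 0.00116). It passed the filter on low counts only because of the allogeneic libraries. With only the syngeneic and control libraries in the fit, 0 type I interferon genes were called higher. Syngeneic 3, with 1 count, was close to control 4, also with 1 count. In allogeneic against syngeneic, Ifnb1 had a log2 fold change of 1.88 (SE 1.02, edgeR adjusted p = 0.248). This was not called, although the groups did not overlap, and it was called with limma-voom (2.499, adjusted p = 0.0336). The 14 Ifna and Ifnab genes, named after their values were seen, together had 31, 29, 42 and 45 counts in the allogeneic libraries, 23 in syngeneic 3 and 0 in the other syngeneic and all control libraries, and these genes are near copies of each other. Ifng, encoding interferon-gamma, had 0 counts in all 12 libraries, which allows up to 0.0217 CPM over the allogeneic, 0.0179 over the syngeneic and 0.0179 over the control group.

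Of 6 receptor genes, 5 were tested (Ifnlr1 was not). In allogeneic against syngeneic 1 rose and 2 fell, where 10.1% of all genes rose and 6.38% fell, and in syngeneic against control 2 rose and 1 fell, where 26.4% rose and 25.6% fell. Ifnar1 and Ifnar2, the type I receptor chains, averaged 72.4 and 145.6 CPM in allogeneic, 60.9 and 189 CPM in syngeneic and 72.7 and 140.1 CPM in control libraries. Ifnar1 was called in neither step (log2 0.25 ± 0.13 and -0.26 ± 0.13), but was called lower in syngeneic against control with library totals only (-0.42, edgeR adjusted p = 0.00714) and without control 4 (0.0455) or syngeneic 3 (0.0401). Ifnar2 fell by 0.38 in allogeneic against syngeneic (SE 0.11, edgeR adjusted p = 0.0289), a call lost without syngeneic 3 or 4 or allogeneic 2, 3 or 4 (0.0542 to 0.104), while it rose by 0.43 in syngeneic against control, a call absent with library totals only (0.0772). Of the interferon-gamma receptor chains, Ifngr1 was at 443 ± 32.2, 515 ± 40.6 and 994 ± 63.3 CPM in allogeneic, syngeneic and control libraries and fell by 0.95 on the log2 scale in syngeneic against control (SE 0.07, edgeR adjusted p = 5.08e-09) and by 1.17 in allogeneic against control. Its call in allogeneic against syngeneic (-0.22, edgeR adjusted p = 0.0462) was lost without syngeneic 1 or 4 or any 1 of allogeneic 1, 3 and 4 (0.0575 to 0.151), with RLE factors (0.0651) and with no filter (0.0533). Ifngr2 rose by 0.33 and 0.34 in allogeneic against syngeneic and syngeneic against control, neither of which was called with library totals only (edgeR adjusted p = 0.242 and 0.0628). Il10rb was called in neither, but with library totals only it was called lower in syngeneic against control (-0.29, edgeR adjusted p = 0.0371) and in allogeneic against control (-0.49, 0.00115).

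The signalling genes moved in different directions. Stat2, a subunit of ISGF3, was at 85.04 ± 15.5 CPM in allogeneic, 29.0 ± 4.70 in syngeneic and 41.4 ± 9.18 in control libraries (SD, n = 4); it rose by 1.55 ± 0.17 in allogeneic against syngeneic (edgeR adjusted p = 2e-06) and fell by 0.51 in syngeneic against control (SE 0.17, edgeR adjusted p = 0.016) but not without control 3, syngeneic 1 or syngeneic 4 (0.069, 0.0526 and 0.0531). Irf9, another subunit, rose by 0.46 ± 0.11 in allogeneic against syngeneic, a call absent with library totals only (edgeR adjusted p = 0.127), and was not called in syngeneic against control (0.15 ± 0.11). Of the receptor kinases, Tyk2 fell by 1.01 in syngeneic against control and rose by 0.52 in allogeneic against syngeneic, the second not with library totals only (edgeR adjusted p = 0.116) or without allogeneic 2 (0.0543). Jak1 rose by 0.32 in syngeneic against control, not with library totals only (edgeR adjusted p = 0.16), and its -0.21 in allogeneic against syngeneic (edgeR adjusted p = 0.114) was called lower with library totals only (-0.41, 0.00258) or without allogeneic 1 (-0.30, 0.0215). Jak2 was called in neither step.

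Regulators upstream and downstream were mixed. Among 8 inducers of type I interferon, 2 rose and 0 fell in allogeneic against syngeneic, while 1 rose and 5 fell in syngeneic against control. Over all genes 10.1% rose and 6.38% fell in allogeneic against syngeneic, and 26.4% rose and 25.6% fell in syngeneic against control. Irf7, the factor that amplifies interferon-alpha genes, stood at 201 ± 25.1 CPM in allogeneic, 30.8 ± 10.4 in syngeneic and 7.75 ± 1.82 in control libraries and rose in both steps (log2 2.71 ± 0.21 and 1.99 ± 0.21). Ikbke, a kinase of the same route, was low (3.43 ± 1.32, 0.24 ± 0.24 and 0.50 ± 0.38 CPM), and its call in allogeneic against syngeneic (3.81 ± 1.19, edgeR adjusted p = 0.0345) was lost without syngeneic 1, 2 or 3 or allogeneic 2, 3 or 4 (0.0514 to 0.0892). Of 6 inhibitors of interferon signalling, 2 rose in allogeneic against syngeneic and 3 fell in syngeneic against control, the second count being 1 without control 1 or syngeneic 3. Socs3, a feedback inhibitor of JAK signalling, rose by 1.61 ± 0.24 in allogeneic against syngeneic and was not called in syngeneic against control (-0.55 ± 0.24, edgeR adjusted p = 0.0625), but was called lower there with library totals only (0.0207), with limma-voom (adjusted p = 0.0466) and without control 4 or syngeneic 4 (edgeR adjusted p = 0.0473 and 0.00828). Ptpn2, a phosphatase that acts on JAK kinases, was near the threshold in allogeneic against syngeneic (0.40 ± 0.14, edgeR adjusted p = 0.0497) and lost that call in 9 of the 12 fits that left out a library (0.0521 to 0.168) and with library totals only (0.302), no filter (0.0518) or only the compared groups (0.055).

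Most other antiviral genes on the list also rose. Of 30 tested, 28 rose in allogeneic against syngeneic (median log2 fold change 1.75) and 23 in syngeneic against control (median 1.48), with 0 falling in either. The shares over all tested genes were 10.1% higher and 6.38% lower in allogeneic against syngeneic, and 26.4% higher and 25.6% lower in syngeneic against control. Bst2, the virus-tethering protein tetherin, rose by 2.04 ± 0.11 and 1.97 ± 0.11, and Gbp3, a guanylate-binding protein, by 2.37 ± 0.14 and 1.25 ± 0.14. In the difference of steps, 7 of these 30 were called higher and 2 lower, where 14.4% of all genes were called higher and 15.5% lower. Among 21 tested genes induced chiefly by interferon-gamma, 19 rose in allogeneic against syngeneic with a median of 3.75, and 14 rose and 2 fell in syngeneic against control with a median of 0.76. The difference of steps was called higher for 15 and lower for 1 of them, as in H2-Ab1, an MHC class II chain at 1828 ± 243, 83.8 ± 13.1 and 52.2 ± 4.44 CPM (3.76 ± 0.20), and the 1 lower call was lost without any 1 of the control libraries. Of the core antiviral 10, 0 were called higher and 2 lower; the difference between the lists was not tested.

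**Figure D5:**
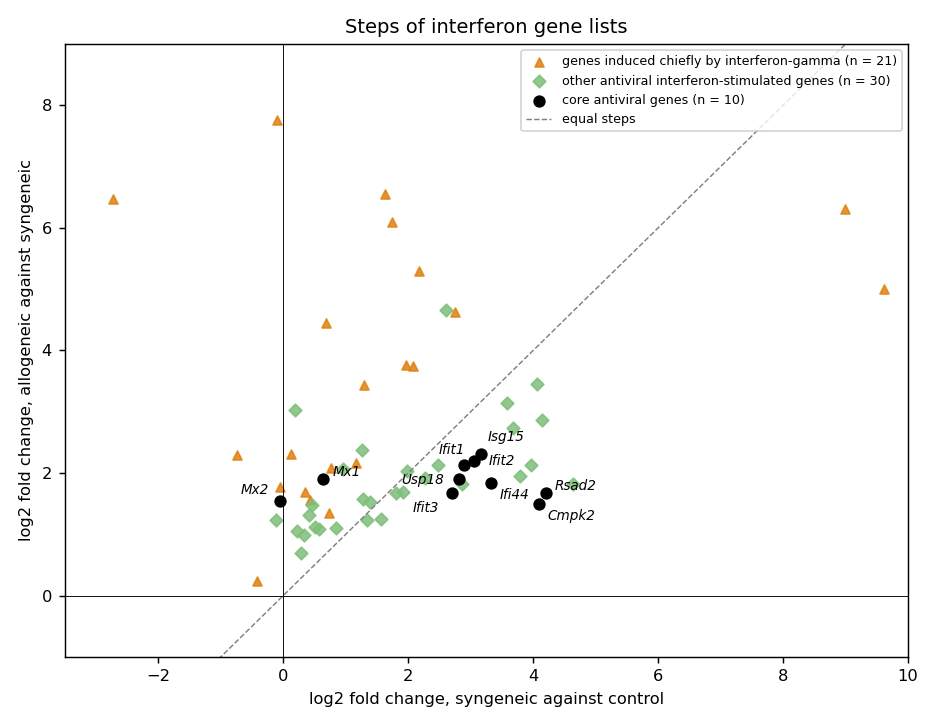
Log2 fold change in syngeneic against control (x axis) and in allogeneic against syngeneic (y axis) for the 10 core antiviral genes (black), 30 other antiviral genes (green) and 21 genes induced chiefly by interferon-gamma (orange); the dashed line marks equal steps, and both axes use the syngeneic libraries. The 8 black points lie right of the line, between 2.71 and 4.20 on the x axis, and Mx1 and Mx2 lie left of it; the orange points beyond 8 on the x axis are Cxcl9 and Iigp1, each with 1 count in all control libraries, so that their x values depend on the prior count.

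Likeness was the root mean square difference between a gene's centred log2 CPM over the 12 libraries and the mean centred profile of the 10. The genes with the smallest differences outside the list were sought, with predicted genes and pseudogenes, told by their symbols, passed over. They were Rtp4 (0.201 log2 units), Sp100 (0.272), Oas1a (0.351), Bcl2a1a (0.373) and AB124611 (0.411). Rtp4, an interferon-induced antiviral and chaperone protein, stood at 488 ± 84.9 CPM in allogeneic, 139 ± 41.4 in syngeneic and 19.1 ± 7.42 in control libraries. Oas1a, an oligoadenylate synthetase that senses double-stranded RNA, was at 113 ± 20.1, 25.8 ± 6.58 and 4.57 ± 2.68 CPM. Among the 10 themselves, Ifi44 (0.234) and Usp18 (0.291) lay nearest to the shared profile and Mx2 (1.56) farthest from it, followed by Rsad2 (1.25) and Cmpk2 (1.24).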

How the data were processed

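The authors deposited 1 table of raw read counts per gene symbol for 12 libraries. The submitters' processing notes name Trimmomatic 0.36, STAR 2.5.2b and the mm9 build. No source used here gives the counting tool, annotation, strand setting or treatment of multiply mapped reads, which leaves near copies such as Ifit3 and Ifit3b uncertain. Per the labels' protocols, RNA with an integrity value of 8 or more from sorted microglia was sequenced.

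From the deposited counts, 1 quasi-likelihood fit of all 12 libraries by group (edgeR 4.0.16 in R 4.3.3, scaled by TMM after filterByExpr at a minimum count of 10, robust) gave the 3 comparisons and the difference of steps, with Benjamini-Hochberg adjustment over 12695 genes. SE is the log2 fold change divided by the root of the F statistic. The method was tested on simulated counts. Within groups, Spearman correlations of log2 CPM were 0.975 to 0.984; the labels count 4 mice per group but do not tie libraries to batches. Replicate numbers did not pair the libraries. Likeness used log2 CPM with a prior count of 2 and passed over predicted genes and pseudogenes, told by their symbols.

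The members and lists were chosen with earlier results of these data known. Named were the 10 members, every tested gene of the ISG15 conjugation, receptor, JAK-STAT and Ifit neighbour lists, the 2 genes of smallest p in each other pathway list, and the 5 genes of most similar profile; Cxcl9, Iigp1, the Ifna genes and Ifng were named after their values were seen. Cd74, which the rule also gives, is counted but not described, and some items that the rule or the marker lists give are not reported here. Tried as alternatives were no filter, RLE factors, only library totals, at least 1 CPM in 4 libraries, DESeq2 1.42.0, limma-voom (limma 3.58.1), only the compared groups, the replicate number as a block and each library left out. Promoter sequences and RefSeq biotypes are from RefSeq (GRCm38.p6), and transcript lengths, overlapping genes and GENCODE types from GENCODE M21. Both are on another build than that of the counts.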

Additional observations from a re-analysis of the deposited data

Results flagged for a closer look

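Of the 30 sets of 4 values of the 10 genes and the 3 of their sum, 1 stood apart. Rsad2 in allogeneic 3 reached 70.6 CPM while the next allogeneic library had 38.2 CPM, a gap that was 0.837 of the whole range of the group against a critical value of 0.829 in Dixon's test for 4 samples. Chance marks about 1 in 20 such sets. Without allogeneic 3, the log2 difference of steps of Rsad2 was -2.87 (edgeR adjusted p = 0.0369), against -2.53 (0.0598) with all libraries.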

How the results depend on the processing

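The numbers of the 10 genes called higher stayed within 8 to 10 in allogeneic against syngeneic, at 8 in syngeneic against control and at 10 in allogeneic against control, and 0 were called lower, under every alternative and with each library left out. With library totals only, 844 of all genes were called higher and 2108 lower in allogeneic against syngeneic, against 1288 and 810 with TMM factors. Over all genes the median was then -0.22 in allogeneic against syngeneic, -0.20 in syngeneic against control and -0.44 in allogeneic against control. In the same order the share of higher calls was 28.6%, 40.7% and 31.8%, against 61.4%, 50.8% and 49.2%. Under that setting the fold changes of Ifnar2, Jak1 and Ptpn2 in allogeneic against control changed sign and were called lower, at -0.32, -0.26 and -0.33 (edgeR adjusted p = 0.0311, 0.0187 and 0.0408). In the difference of steps, 1 of the 10 was called lower with no filter and 1 with limma-voom, 3 with library totals only (Rsad2 added), against 2, and 1 to 4 with a library left out. The number called higher there was 1 (Mx2, edgeR adjusted p = 0.0402) with the replicate number as a block, which also ended the calls of Ifnar2 (0.0522) and Ptpn2 (0.0776) in allogeneic against syngeneic, and 0 to 2 with a library left out, against 0. The causes were not tested. Same-numbered libraries of different groups did not deviate together (r -0.015 to 0.0317 over 12 pairs), so the block is not a pairing, and no library correlated best with its own number in both other groups. Counts were low for Rsad2 and Cmpk2 in control libraries (0 to 82 and 0 to 49) and for each interferon ligand in all libraries (at most 87). The part of depth in this was not tested.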
